A study of Mus musculus with 48 samples.

Results

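Immunoglobulin heavy and light chain genes were examined in RNA-seq libraries of monocytes, pre-red pulp macrophages (pre-RPMs), and red pulp macrophages (RPMs) sorted from mouse spleen. The members were all genes whose symbol begins with Igh followed by v, m, g, a, d, or e, with Igk followed by v or c, or with Igl followed by v or c, and whose counts summed to at least 10 over the 24 libraries. This rule took 222 of 54735 genes, out of 380 with such a name. They comprised 111 heavy chain variable (V) segments, 8 heavy chain constant genes, 95 kappa V segments, the kappa constant gene Igkc, 3 lambda V segments, and 3 lambda constant genes. The remaining member, Ighmbp2, encodes a helicase-like protein named after a binding site in the heavy chain locus and is no immunoglobulin gene. It had between 10 and 50 counts in every library, was called in no comparison, and was left out of all counts of members below, so that 221 remained. None of the 20 heavy chain D segments reached the threshold. The 9 genes just inside it, Ighe among them, had 10 or 11 counts in all, and the 11 just outside it, Ighd4-1 among them, had 8 or 9.

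The mice were male Balb/c, 10 weeks old, and either wild type (WT) or labelled IL1RL1-/-, lacking the receptor for the cytokine IL-33 in all cells by the label. All 6 groups held 4 libraries, and each library came from a single mouse, so that 1 mouse of each number gave a monocyte, a pre-RPM, and an RPM library. Monocytes were gated as Ly6Glo CD11bhi F4/80- cells, pre-RPMs as Ly6Glo CD11bhi F4/80lo cells, and RPMs as Ly6Glo CD11blo/- F4/80hi cells, among cells low for CD11c, NK1.1, and side scatter. No B cell or plasma cell marker was among these gates. The total count per library ranged from 3562367 to 6559454.

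An antibody is built from paired heavy and light chains, and each chain joins a variable region, which binds antigen, to a constant region. In developing B cells, DNA recombination joins 1 of many V segments to short D and J segments, or to J alone in light chains, so that the transcripts of a B cell clone carry a single V segment per chain. Naive B cells express the constant genes Ighm and Ighd, and class switching replaces them with the genes of IgG, IgE, or IgA. Plasma cells, the antibody-secreting descendants of B cells, hold very large amounts of immunoglobulin mRNA and are found in the splenic red pulp. Macrophages and monocytes do not rearrange these genes.

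By the deposited coordinates (GRCm38), the 119 heavy chain members lie between 113254830 and 116010093 on chromosome 12, the 96 kappa members between 67555497 and 70726966 on chromosome 6, and the 6 lambda members between 19061618 and 19260859 on chromosome 16. V segments of 1 family can be nearly identical, which limits how reads are assigned. All 221 genes had the same coordinates in GENCODE M21, and 180 of them shared at least 1 stretch of 50 bases, the length of a read, with another gene, with a median of 21.0% of their stretches shared. Igha, Ighm, Ighd, Ighe, Igkc, and Iglc1 shared none. The 6 kappa V segments on which results below turn are printed from GENCODE M21, 5' to 3' on the coding strand. Each is shown as its exon 2, which holds nearly the whole V region, limited to the last 300 bases. Igkv8-30, Igkv1-110, and Igkv1-117 are at this limit, and the coordinates are those of the printed bases. Lower case marks bases inside a 50-base stretch that also occurs in another gene, and capitals mark bases in no such stretch, where only this segment is read. Igkv9-124 (chr6:67942074-67942371, minus strand), Igkv9-120 (chr6:68050159-68050456, plus strand), and Igkv9-123 (chr6:67954228-67954525, minus strand) are shown together because they belong to 1 family but differed in where they were counted. Igkv8-30 (chr6:70117061-70117360, minus strand) had the most counts of all V segments. Igkv1-110 (chr6:68270968-68271267, plus strand) and Igkv1-117 (chr6:68121528-68121827, plus strand) are a near-identical pair among the 10 most counted.
Igkv9-124: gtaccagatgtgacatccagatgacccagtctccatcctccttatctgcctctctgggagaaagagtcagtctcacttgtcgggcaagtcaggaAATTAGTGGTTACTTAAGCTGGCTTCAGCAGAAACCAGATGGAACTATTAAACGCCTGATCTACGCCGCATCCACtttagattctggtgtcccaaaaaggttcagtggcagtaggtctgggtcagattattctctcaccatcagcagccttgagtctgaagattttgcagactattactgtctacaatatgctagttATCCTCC
Igkv9-120: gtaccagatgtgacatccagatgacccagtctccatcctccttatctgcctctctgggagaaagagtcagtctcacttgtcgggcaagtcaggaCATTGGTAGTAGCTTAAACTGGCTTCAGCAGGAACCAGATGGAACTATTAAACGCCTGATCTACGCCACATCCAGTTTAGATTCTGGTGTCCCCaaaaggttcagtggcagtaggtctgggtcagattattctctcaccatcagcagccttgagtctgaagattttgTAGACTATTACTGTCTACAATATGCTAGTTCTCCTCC
Igkv9-123: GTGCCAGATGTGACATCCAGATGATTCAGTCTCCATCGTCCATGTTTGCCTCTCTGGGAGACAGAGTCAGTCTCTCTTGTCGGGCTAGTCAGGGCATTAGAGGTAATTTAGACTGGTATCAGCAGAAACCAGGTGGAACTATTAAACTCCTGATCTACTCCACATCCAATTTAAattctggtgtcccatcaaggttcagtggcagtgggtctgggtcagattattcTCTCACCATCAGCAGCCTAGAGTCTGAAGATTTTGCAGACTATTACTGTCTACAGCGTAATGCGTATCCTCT
Igkv8-30: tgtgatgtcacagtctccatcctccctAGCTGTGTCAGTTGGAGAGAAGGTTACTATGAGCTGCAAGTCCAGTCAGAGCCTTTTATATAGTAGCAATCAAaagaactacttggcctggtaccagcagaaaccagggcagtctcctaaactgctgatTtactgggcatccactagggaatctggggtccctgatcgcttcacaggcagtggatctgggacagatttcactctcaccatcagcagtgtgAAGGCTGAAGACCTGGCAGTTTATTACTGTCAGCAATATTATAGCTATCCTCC
Igkv1-110: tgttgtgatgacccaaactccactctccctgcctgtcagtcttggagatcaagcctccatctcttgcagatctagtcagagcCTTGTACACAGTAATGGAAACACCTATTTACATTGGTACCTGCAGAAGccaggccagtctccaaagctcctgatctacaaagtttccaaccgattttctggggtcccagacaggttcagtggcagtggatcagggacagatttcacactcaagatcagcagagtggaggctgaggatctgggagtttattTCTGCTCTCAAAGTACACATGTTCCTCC
Igkv1-117: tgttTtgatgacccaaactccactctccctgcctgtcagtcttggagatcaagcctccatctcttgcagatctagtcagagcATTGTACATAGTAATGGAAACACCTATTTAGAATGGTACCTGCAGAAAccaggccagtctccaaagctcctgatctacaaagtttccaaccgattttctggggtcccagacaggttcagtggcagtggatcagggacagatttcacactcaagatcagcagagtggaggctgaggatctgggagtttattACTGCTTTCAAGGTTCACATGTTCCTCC

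Igkv9-124 and Igkv9-120 differed at 12 of 298 aligned positions, Igkv9-124 and Igkv9-123 at 38, and Igkv1-110 and Igkv1-117 at 10. Taken alone, a read equal to a shared stretch matches more than 1 gene. Of the 50-base stretches, 31.3% of those of Igkv9-124, 0.915% of those of Igkv9-123, and 50.9% of those of Igkv1-110 were shared. The reference genome is that of C57BL/6 and the mice were Balb/c, whose V segments and IgG2a gene differ from the reference, so a member stands for the reads that matched that reference gene.

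Markers of the sorted cells and of other cells set the frame for these values. The 6 RPM markers, Slc40a1 and Vcam1 among them, were all higher in RPMs than in pre-RPMs in both genotypes, whereas 4 of 5 monocyte markers were lower and Csf1r was higher. Summed over 15 B cell genes, the mean level was 160 CPM (the count relative to the library's total on the usual CPM scale, with TMM factors) in WT monocytes, 131 in IL1RL1-/- monocytes, 167 and 102 in WT and IL1RL1-/- pre-RPMs, and 315 and 282 in WT and IL1RL1-/- RPMs, and no listed gene was at 0 throughout a group. The larger sums in RPMs were not a rise of the whole list. From pre-RPMs to RPMs, 14 of its genes were tested in each genotype, with 1 called higher (Bank1 in IL1RL1-/- mice) and 1 lower. Their median log2 fold change was 0.18 in WT and 0.27 in IL1RL1-/- mice. The 5 NK cell genes summed to 1145 and 889 CPM in WT and IL1RL1-/- monocytes and to at most 91.0 CPM on average in the other groups. The 5 monocyte markers had their lowest sums in monocytes, 802 and 996 CPM in WT and IL1RL1-/- mice. Their sums were 1418 and 1574 CPM in pre-RPMs and 1474 and 1621 CPM in RPMs. The 5 neutrophil genes, S100a8 among them, summed to 887 and 901 CPM in WT and IL1RL1-/- monocytes. They summed to 141 and 181 CPM in pre-RPMs and 8.21 and 1.54 CPM in RPMs. Il1rl1 went against its label: its mean was 3.19 CPM in WT and 14.1 in IL1RL1-/- monocytes, it was 4.26 and 12.3 in pre-RPMs, and RPMs alone had it lower in the libraries labelled IL1RL1-/- (0.826 against 1.94). Directions between genotypes therefore follow the labels, and IL1RL1-/- stands below for the libraries labelled so.

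Immunoglobulin transcripts were counted in every library and were most abundant in monocytes. All members together took between 0.0113% and 1.08% of the total count of a library. In WT monocytes, the summed level was 3729, 3347, 2679, and 3487 CPM in mice 1 to 4. In IL1RL1-/- monocytes it was 7980.3, 10526, 6693, and 2395 CPM. Mouse 4 of this group was below all WT monocyte libraries and the other 3 were above them, and the ratio of the means was 2.08. Pre-RPMs held 1110.4, 734, 1023, and 684 CPM in WT and 1297, 2037, 1033, and 312 CPM in IL1RL1-/- mice, with overlapping groups. WT RPMs held 993, 1623, 581, and 479 CPM, and IL1RL1-/- RPMs held 492, 254, 119, and 129 CPM, so that the lowest WT library was below the highest IL1RL1-/- library and the ratio of WT to IL1RL1-/- means was 3.70. The mean of WT monocytes was 3.73 times that of WT pre-RPMs, which in turn was 0.966 times that of WT RPMs. In IL1RL1-/- mice, the corresponding ratios were 5.90 and 4.70. These sums are descriptions without a test. In libraries of sorted bulk cells, fewer cells of a type and less RNA per cell cannot be told apart.

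**Figure D1:**
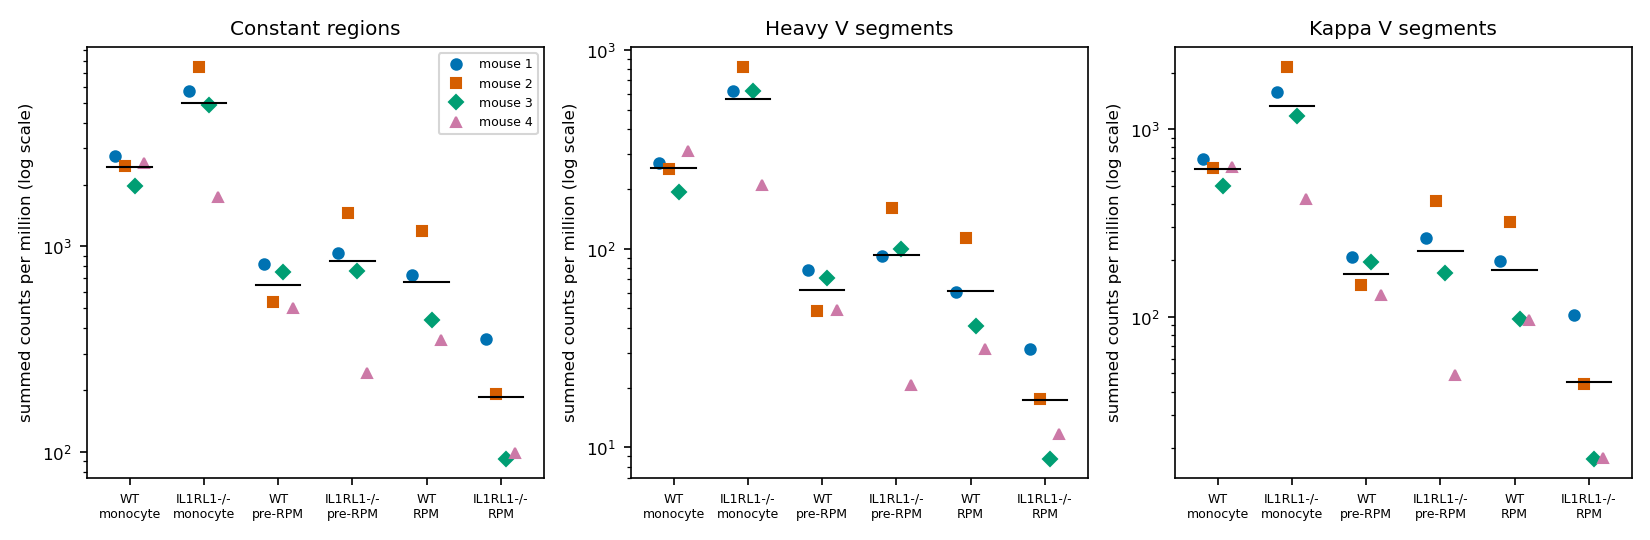
Summed immunoglobulin levels by library on a log10 axis in TMM-scaled CPM, with 1 point per library (n = 4 per group), its shape and colour giving the mouse number, and the group mean as a line, in 1 panel each for constant regions, heavy V segments, and kappa V segments. Monocyte libraries are above all others in each panel, and IL1RL1-/- RPM libraries, at 92.5 to 355 CPM in the constant regions, have the lowest mean.

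Variable and constant genes moved together. The ratio of V counts to constant counts was between 0.289 and 0.402 in all 24 libraries, with group means from 0.329 in IL1RL1-/- RPMs to 0.384 in IL1RL1-/- monocytes. Jchain, which encodes the chain that links IgA and IgM into polymers and is transcribed by antibody-secreting cells, averaged 459 CPM in WT and 913 CPM in IL1RL1-/- monocytes. Its mean was 125 and 157 CPM in WT and IL1RL1-/- pre-RPMs, and 103 and 28.5 CPM in WT and IL1RL1-/- RPMs. In 6 of 6 groups, the library with the most immunoglobulin transcripts was also the library with the most Jchain. The 15 plasma cell genes summed to 827 and 1429 CPM in WT and IL1RL1-/- monocytes, to 383 and 413 CPM in pre-RPMs, and to 690 and 515 CPM in RPMs. This list includes genes such as Xbp1 that macrophages also express. The part of B cells or plasma cells in the values below was not tested.

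The heavy chain class in the transcripts shifted from Igha to Ighm between the sorts. Igha encodes the constant region of IgA, the class of mucosal secretions, and Ighm that of IgM, the first class a B cell makes. As a share of heavy chain constant counts, Igha made up 69.7% ± 10.2 (SD, n = 4) in WT monocytes, 48.8% ± 7.94 in WT pre-RPMs, and 6.30% ± 1.39 in WT RPMs. Ighm made up 23.96% ± 10.4, 44.0% ± 8.51, and 87.4% ± 3.28 in the same groups. In IL1RL1-/- mice, Igha made up 90.1% ± 4.10 of the counts in monocytes and 69.7% ± 12.6 in pre-RPMs, but 13.5% ± 8.56 in RPMs. The lowest IL1RL1-/- monocyte library (84.3%) was above the highest WT one (83.2%), whereas the pre-RPM and RPM groups overlapped between genotypes. Per kilobase of annotated exon, which allows levels of different genes to be compared, Igha took 62.6% of the heavy constant level in WT monocytes and 4.55% in WT RPMs, against 87.2% and 10.1% in IL1RL1-/- mice. The 4 IgG genes together (Ighg1, Ighg2b, Ighg2c, and Ighg3) took between 0.635% (IL1RL1-/- RPMs) and 5.67% (IL1RL1-/- pre-RPMs) of heavy constant counts on average. Ighd, the IgD gene, had a mean share from 0.296% in IL1RL1-/- monocytes to 5.96% in IL1RL1-/- RPMs. Ighe, the IgE gene, had at most 2 counts in any library. Kappa took between 89.0% and 95.3% of light chain constant counts in the group means.

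**Figure D2:**
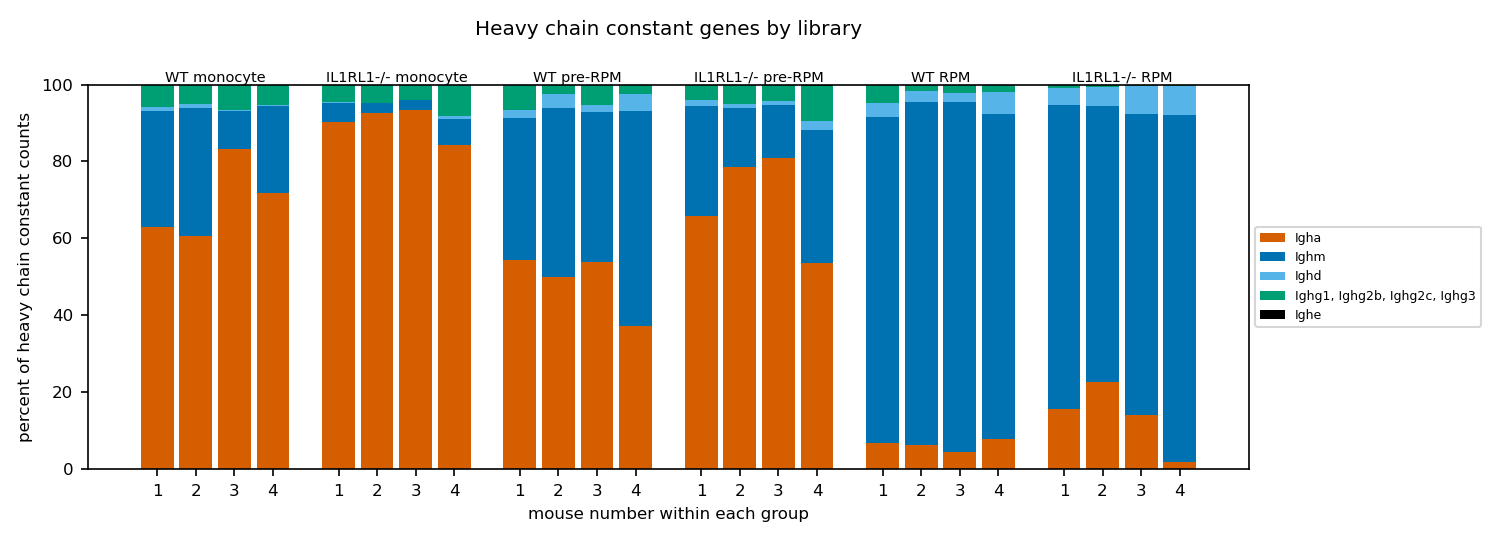
Share of heavy chain constant counts in percent, stacked by constant gene (the 4 IgG genes combined), with 1 bar per library and the axis from 0 to 100. Igha takes 60.7 to 83.2% of a WT monocyte library and 4.49 to 7.83% of a WT RPM library, with Ighm taking most of the remainder.

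The question between genotypes was whether the label IL1RL1-/- goes with another level of any member within 1 cell type. In monocytes, 119 members passed the filter on low counts. By edgeR's quasi-likelihood test, 0 of them were called at a Benjamini-Hochberg adjusted p under 0.05, where 0.0614% of all genes tested were called in either direction. Of these members, 54 had an unadjusted p under 0.05, 98 were higher and 21 lower, and their median log2 fold change was 0.97. In IL1RL1-/- monocytes alone, 17 of them reached 10 counts in all 4 libraries, and 11 did in WT monocytes alone. Variable and constant genes also moved together, so these counts and the median are a description. The count by unadjusted p has no share over all genes beside it. DESeq2 called 11. Same-numbered libraries of both genotypes, though from different animals, deviated together in monocytes, and with the mouse number as a block 14 members were called. What the shared number stands for between genotypes was not tested. Shares over all genes tested are those of edgeR without the block. Counts by DESeq2 or with the block stand without such a share, here and below.

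In monocytes, Igha and Ighm had opposite signs. Ighm read 392, 418, 100.7, and 303 CPM in WT mice 1 to 4 and 144, 88.3, 66.5, and 57.8 CPM in IL1RL1-/- mice. The groups overlapped through WT mouse 3, and the log2 fold change was -1.78 (SE 0.42, adjusted p = 0.775 by edgeR's quasi-likelihood test, and 0.0238 with the mouse number as a block). Igha read 816, 761, 847, and 973 CPM in WT and 2697, 3283, 2423, and 714 CPM in IL1RL1-/- mice. IL1RL1-/- mice 1 to 3 were above all WT libraries and mouse 4 was below them (log2 fold change 1.41, SE 0.37, edgeR adjusted p = 0.837, with the block 0.429). Igkc, the constant region of most mouse light chains, was likewise above all WT libraries in IL1RL1-/- mice 1 to 3 and below them in mouse 4, with 1377, 1112, 886, and 1135 CPM in WT and 2607, 3812, 2177, and 854 CPM in IL1RL1-/- mice. Ighg2b was the constant gene whose monocyte groups did not overlap: WT libraries read 23.2, 24.8, 22.0, and 32.4 CPM, and IL1RL1-/- libraries 63.7, 98.6, 58.6, and 38.3 CPM (log2 fold change 1.33, SE 0.26, edgeR adjusted p = 0.311, with the block 0.0722).

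In pre-RPMs, 43 members were tested and 0 were called by edgeR, against 0.552% of all genes tested. An unadjusted p under 0.05 was reached by 11 of them, DESeq2 called 1, and the median log2 fold change was 0.44. Of the 43, 7 reached 10 counts in all 4 libraries in WT pre-RPMs alone and 1 in IL1RL1-/- pre-RPMs alone, so these values are a description. Ighm read 168, 121, 163, and 151 CPM in WT and 136, 108, 61.3, and 49.0 CPM in IL1RL1-/- pre-RPMs (log2 fold change -0.77, SE 0.23, edgeR adjusted p = 0.227). Of the 15 B cell genes, Bank1, Pax5, and Ms4a1 fell in the same comparison, and 13 of the 14 tested had an unadjusted p under 0.05. Lower levels were not confined to B cell genes. Of the 5 NK cell genes, Ncr1, Prf1, and Gzma fell, and all 4 tested had an unadjusted p under 0.05. The median log2 fold change was -0.89 over the tested B cell genes and -1.98 over the tested NK cell genes.

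In RPMs, 1 of 19 tested members was called by edgeR, where 0.233% of all genes tested were called in either direction. This member, Igkv9-124, fell in the libraries labelled IL1RL1-/-. Its counts in WT RPMs were 66, 104, 58, and 18, corresponding to 14.0, 21.2, 15.5, and 4.16 CPM. IL1RL1-/- RPMs had 3, 4, 0, and 0 counts. The groups did not overlap, and the log2 fold change was -5.20 (SE 0.65, adjusted p = 0.00218 by edgeR's quasi-likelihood test), a size that rests on 7 counts in the lower group. It remained called when each of the 8 libraries was left out in turn.

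Of the 19 tested RPM members, 17 were lower and 2 higher in the libraries labelled IL1RL1-/-. Same-numbered libraries of both genotypes deviated together also in RPMs. The fit blocked by mouse number called 8 members, and DESeq2 called 7. Ighm read 316, 575, 211, and 162 CPM in WT and 146, 76.6, 41.9, and 49.0 CPM in IL1RL1-/- RPMs. These groups did not overlap, and the log2 fold change was -2.03 (SE 0.42, edgeR adjusted p = 0.104, with the block 2.04e-05). Igkc read 325, 500, 192, and 145 CPM in WT and 157, 71.7, 33.1, and 41.5 CPM in IL1RL1-/- RPMs, and overlapped only through WT mouse 4 and IL1RL1-/- mouse 1 (log2 fold change -1.96, SE 0.46, edgeR adjusted p = 0.185, with the block 2.04e-05). Igkv8-30 read 25.8, 36.2, 12.02, and 8.54 CPM in WT and 8.97, 0.817, 1.53, and 0.213 CPM in IL1RL1-/- RPMs (log2 fold change -2.94, SE 0.66, edgeR adjusted p = 0.152, with the block 0.000448). Igha, at 25.0, 39.7, 10.4, and 15.0 CPM in WT and 28.9, 24.02, 7.46, and 1.06 CPM in IL1RL1-/- RPMs, differed by less (log2 fold change -0.57, SE 0.57, edgeR adjusted p = 0.900, with the block 0.503). Over the tested members the median log2 fold change was -1.58 and 13 had an unadjusted p under 0.05. Since 6 of them reached 10 counts in all 4 libraries in WT RPMs alone and 0 in IL1RL1-/- RPMs alone, the filter favoured members high in WT, and these counts and the median are a description. Of the 15 plasma cell genes, 0 were called by edgeR in this comparison, 5 had an unadjusted p under 0.05, and 3 were called with the block.

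**Figure D3:**
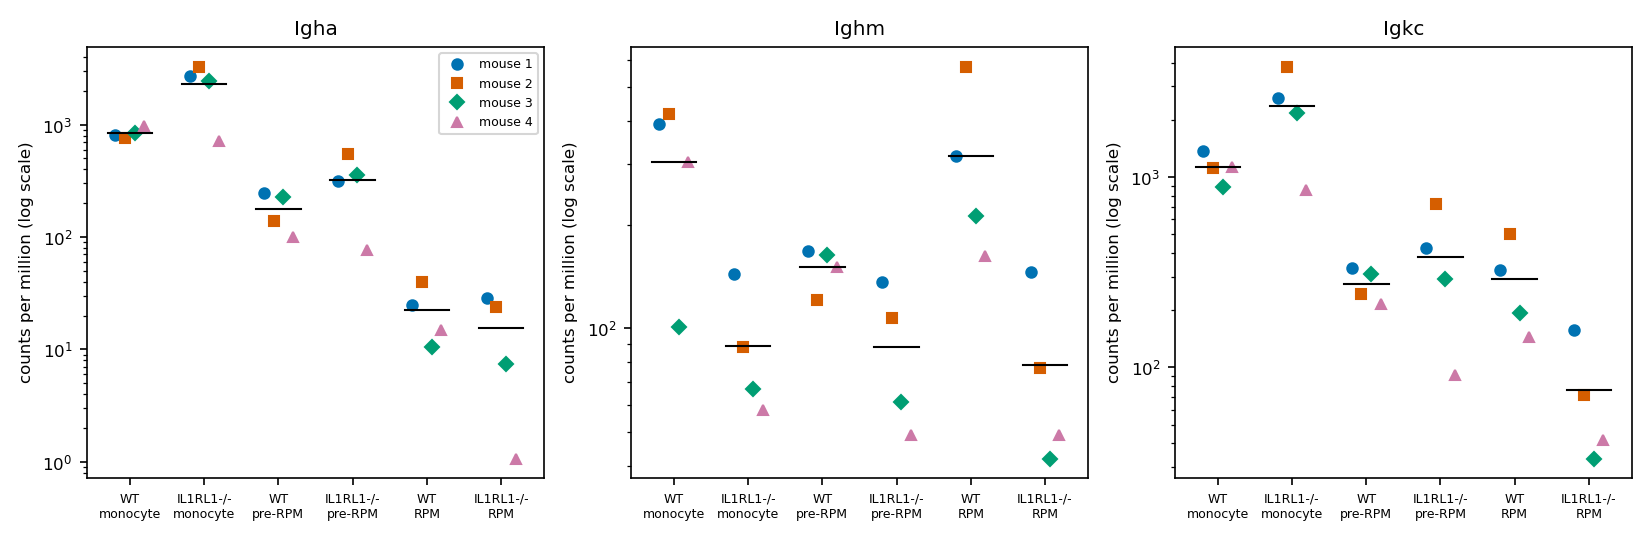
Levels of Igha, Ighm, and Igkc by library on a log10 axis in TMM-scaled CPM, with 1 point per library, its shape and colour giving the mouse number, and the group mean (n = 4) as a line. Igha falls from monocytes to pre-RPMs and again to RPMs in both genotypes, whereas Ighm in WT RPMs (162 to 575 CPM) lies in or above the range of WT monocytes (100.7 to 418 CPM).

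Between cell types, the comparisons asked which members changed along the series from monocyte to pre-RPM to RPM, with calls where the adjusted p was under 0.01 and the log2 fold change was below -1 or above 1. From WT monocytes to pre-RPMs, 83 members were tested, and 24 fell and 0 rose by edgeR, where 3.25% of all genes tested fell. Of the 83, 54 reached 10 counts in all 4 libraries of the monocytes alone, so that many passed the filter through the group in which they were high, and their count is a description. Since the monocyte and pre-RPM library of a number came from 1 animal, the mouse number was also used as a block, which called 50. Igha fell from a mean of 849 ± 90.0 to 178 ± 69.6 CPM (log2 fold change -2.26, SE 0.26, edgeR adjusted p = 0.000475). Igkc fell from 1128 ± 201 to 275 ± 55.8 CPM (log2 fold change -2.04, SE 0.19, edgeR adjusted p = 0.000217). Ighg2b, Iglc1, and Iglc2 also fell, and with 1 library left out they were called in 4, 6, and 2 of 8 fits. Ighm, at 303 ± 144 and 151 ± 21.1 CPM, was not called (log2 fold change -1.01, SE 0.34, edgeR adjusted p = 0.0639), and Ighd had a log2 fold change of 0.10. The largest falls among V segments were those of Igkv4-70 (log2 fold change -3.41), Igkv8-28 (-2.75), Igkv4-59 (-2.69), Igkv17-127 (-2.42), and Ighv1-82 (-2.30). With 1 library left out, they were called in 6, 3, 8, 5, and 2 of 8 fits, in this order. In WT pre-RPMs, Igkv4-70 had 3, 1, 2, and 1 counts, Igkv8-28 had 3, 7, 2, and 1, and Ighv1-82 had 1, 1, 5, and 2. These are too few for the size of their changes or the order of the falls to be read. Igkv4-59 had 7 to 10 counts there and Igkv17-127 had 5 to 15. Reads of Igkv4-70 and Igkv4-59 are uncertain, since 63.9% and 74.3% of their 50-base stretches occur in other genes. Of the 15 plasma cell genes, Slamf7, Jchain, Prdm1, Derl3, and Mzb1 fell as well, and 0 of the 15 B cell genes were called, with 1 under an unadjusted p of 0.05. All 5 NK cell genes fell in the same comparison.

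From IL1RL1-/- monocytes to pre-RPMs, 35 of 95 tested members fell and 0 rose without the block, where 3.88% of all genes tested fell. The block by mouse called 90, a count without a share over all genes. Here 69 of the 95 reached 10 counts in all 4 libraries in monocytes alone. Igha fell from 2279 ± 1104 to 324 ± 193 CPM (log2 fold change -2.81, SE 0.54, edgeR adjusted p = 0.00467) and Igkc from 2363 ± 1221 to 382 ± 265 CPM (log2 fold change -2.62, SE 0.55, edgeR adjusted p = 0.00739). Both calls depended on single libraries: Igha was called in 5 and Igkc in 4 of 8 fits that left out 1 library. Ighg1, an IgG gene, fell from 14.8 ± 4.07 to 1.04 ± 1.15 CPM (log2 fold change -3.76, SE 0.47, edgeR adjusted p = 0.000289). Ighg2b, Ighg2c, Iglc1, and Iglc3 fell too, called in 4, 8, 3, and 8 of 8 such fits. Ighm, in contrast, averaged 89.1 ± 38.7 and 88.5 ± 40.6 CPM, with a log2 fold change of -0.00 and an SE of 0.33. Among V segments, Ighv3-6 (-3.80), Igkv13-85 (-3.74), Ighv1-5 (-3.65), and Igkv9-120 (-3.49) had the largest log2 falls. The first 3 of these were called in 8 of 8 fits with 1 library left out and Igkv9-120 in 2. In IL1RL1-/- pre-RPMs, Ighv3-6 had 7, 3, 2, and 3 counts and Igkv13-85 had 1, 4, 0, and 1. Ighv1-5 had 4, 9, 4, and 2 there, Igkv9-120 had 5, 20, 11, and 0, and Ighg1 had 11, 7, 0, and 2. The size of these falls rests on these few counts. Slamf7, Tent5c, Pou2af1, Txndc5, Sdc1, and Mzb1 of the plasma cell list fell, and the 5 NK cell genes fell.

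The same pre-RPM libraries served in the next step, so values of both steps are given side by side and not compared. From WT pre-RPMs to RPMs, 38 members were tested, of which 1 rose and 1 fell by edgeR, where 14% of all genes tested rose and 10.7% fell. Igha fell from 178 ± 69.6 to 22.5 ± 12.95 CPM (log2 fold change -3.00, SE 0.36, edgeR adjusted p = 7.31e-06). Igkv9-124 rose from 5.82, 5.51, 3.92, and 2.14 CPM to 14.0, 21.2, 15.5, and 4.16 CPM (log2 fold change 1.61, SE 0.41, edgeR adjusted p = 0.00475), a rise in 4 of 4 mice that was called in 4 of 8 fits with 1 library left out. Ighm, at 151 ± 21.1 and 316 ± 184 CPM, missed the threshold (log2 fold change 1.02, SE 0.30, edgeR adjusted p = 0.0110), and Igkc averaged 275 ± 55.8 and 291 ± 159 CPM. The block by mouse called 3, with Igkv8-21 lower in addition (log2 fold change -1.55, edgeR adjusted p = 0.00438, without the block -1.85 and 0.0519). Its size leaned on pre-RPM mouse 3: Igkv8-21 had 23, 7, 96, and 9 counts in pre-RPMs and 12, 11, 16, and 2 in RPMs. Without the block and with 1 library left out, its log2 fold change ranged from -2.23 to -0.478, and it was called in 0 of 8 fits.

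From IL1RL1-/- pre-RPMs to RPMs, 11 of 24 tested members fell and 0 rose, where 11.5% of all genes tested fell. Since 7 of the 24 reached 10 counts in all 4 libraries in pre-RPMs alone and 0 in RPMs alone, this count is a description. The block by mouse called 17. Igha fell from 324 ± 193 to 15.4 ± 13.2 CPM (log2 fold change -4.44, SE 0.63, edgeR adjusted p = 2.37e-05) and Igkc from 382 ± 265 to 75.8 ± 56.4 CPM (log2 fold change -2.40, SE 0.52, edgeR adjusted p = 0.00117). Ighg2b fell from 43, 159, 53, and 32 counts to 2, 2, 1, and 0, and Ighg2c from 23, 42, 8, and 35 counts to 1, 2, 0, and 1, too few for the size of either change to be read. Ighg1 had 0 counts in all 4 IL1RL1-/- RPM libraries, and 3 counts, the limit that a count of 0 allows for counting error only, corresponded to between 0.490 and 0.673 CPM there. Iglc1, Igkv5-43, Ighv5-17, Igkv8-30, Igkv6-15, Igkv1-110, and Igkv12-44 completed the called members. With 1 library left out, Igkv12-44 was called in 2, Igkv6-15 in 4, and Igkv8-30 in 7 of 8 fits, and the other called members in 8 of 8. Ighm (88.5 ± 40.6 and 78.4 ± 47.5 CPM, log2 fold change -0.24, SE 0.35) and Ighd (log2 fold change -0.15) were not called. Slamf7, Jchain, and Irf4 of the plasma cell list fell and Tent5c rose, and of the B cell list Bank1 rose and Cd37 fell. These calls were not all particular to IL1RL1-/- mice. From WT pre-RPMs to RPMs, Tent5c and Irf4 were called too, 1 higher and 1 lower, and so were Bank1 and Cd37, 1 higher and 1 lower.

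Whether a step differed between genotypes was tested by the interaction of genotype and cell type. Over monocytes and pre-RPMs, 0 of 119 tested members were called by edgeR with or without the block, as were 0% of all genes tested, and 4 members had an unadjusted p under 0.05. Over pre-RPMs and RPMs, 0 of 62 were called without the block, against 0.107% of all genes tested, with 34 under an unadjusted p of 0.05, and 9 were called with the block. In the interactions this block is the mouse number, which different animals of both genotypes share, so it does not pair libraries by animal alone. Over monocytes and RPMs, 0 of 121 were called without the block, against 0.0318% of all genes tested, with 70 under an unadjusted p of 0.05, and 15 were called with the block. DESeq2 was not run for the interactions. Counts with the block and counts by unadjusted p stand without a share over all genes. The comparisons within monocytes, pre-RPMs, and RPMs tested 119, 43, and 19 members. Most members of the interactions thus passed the filter through the group in which they were high, and their counts are a description. With the block, the step from pre-RPMs to RPMs was lower in IL1RL1-/- mice for Igkv9-124 by a log2 difference of -4.56 (edgeR adjusted p = 0.000728, without the block 0.165), for Igkv8-30 by -4.07 (0.0116, without the block 0.1302), and for Igkc by -2.20 (0.0332, without the block 0.270). For Ighm the difference was -1.12 and not called (edgeR adjusted p = 0.239, without the block 0.600).

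The V segments were widely spread in each library. Between 48 and 201 of the 209 V members had counts in a library, and the most counted V segment took between 3.79% and 13.9% of its V counts. The inverse Simpson index, the number of equally used segments that would give the same chance that 2 reads fall on 1 segment, averaged 59.96 ± 10.98 in WT monocytes, 53.6 ± 6.69 in IL1RL1-/- monocytes, 54.9 ± 9.66 in WT pre-RPMs, and 45.1 ± 4.67 in IL1RL1-/- pre-RPMs. It was 42.8 ± 10.7 in WT RPMs and 35.6 ± 13.04 in IL1RL1-/- RPMs. V counts per library ranged from 3098 to 14359 in monocytes, from 379 to 3447 in pre-RPMs, from 534 to 2168 in WT RPMs, and from 122 to 613 in IL1RL1-/- RPMs. The lowest index, 26.3, was that of IL1RL1-/- RPM 1, in which Igkv1-135 took 72 of 613 V counts (11.7%).

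Single libraries led many segments, yet few segments were confined mainly to 1 library. Of 122 V segments with at least 100 counts in all, 100 had their highest CPM in an IL1RL1-/- monocyte library, 50 of them in mouse 2, which also had the highest summed level. Another 19 were highest in a WT monocyte library, 3 in a WT RPM library, and 0 in a pre-RPM or IL1RL1-/- RPM library. The highest library held a median of 23.4% of a segment's CPM summed over the 24 libraries, and 4 segments had over 50% in 1 library. These were Igkv9-123 with 65.7% in WT monocyte 4 (94 counts), Igkv4-90 with 56.7% in IL1RL1-/- monocyte 3 (101 counts), Ighv1-37 with 54.0% in IL1RL1-/- monocyte 2 (73 counts), and Igkv8-34 with 52.7% in WT monocyte 4 (156 counts). Igkv9-123 read 0.458, 0.399, 1.38, and 14.1 CPM in WT monocytes and was at 0 counts in all 8 RPM libraries. Its relatives behaved otherwise: Igkv9-120 was highest in IL1RL1-/- monocytes (36.7, 24.2, 25.0, and 2.26 CPM), and Igkv9-124 read 17.7, 24.2, 8.95, and 10.6 CPM in WT monocytes and 4.67, 35.1, 6.03, and 4.12 CPM in IL1RL1-/- monocytes. Since Igkv9-120 and Igkv9-124 share long stretches, only reads over a base at which they differ tell them apart.

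**Figure D4:**
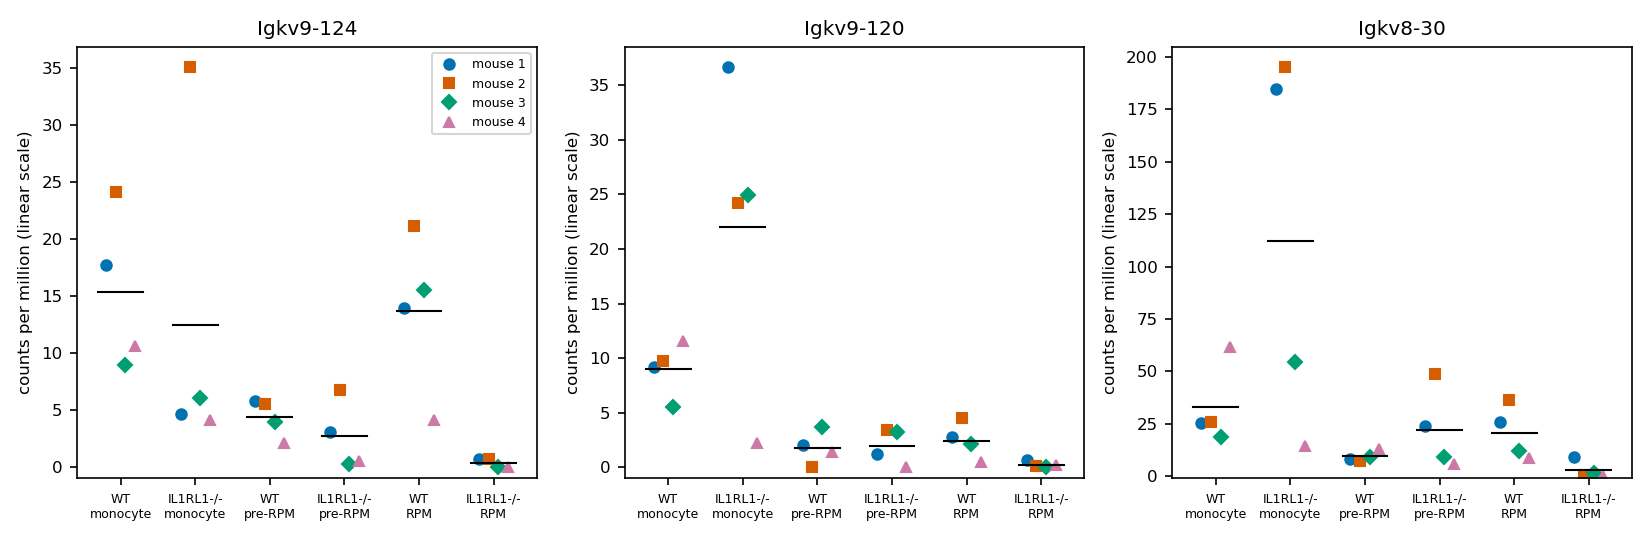
Levels of Igkv9-124, Igkv9-120, and Igkv8-30 in TMM-scaled CPM by library on linear axes, with 1 point per mouse (n = 4 per group) and the group mean as a line. Igkv9-124 is at 4.16 to 21.2 CPM in WT RPMs and at most 0.673 CPM in IL1RL1-/- RPMs, whereas Igkv9-120 is highest in IL1RL1-/- monocytes.

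Igkv8-30 was the segment counted most, with 3827 counts over all libraries, and was the leading V segment in 8 of 24 libraries, including 1 or more of each group but IL1RL1-/- RPMs. In monocytes it read 25.2, 26.0, 18.6, and 61.4 CPM in WT and 184, 195, 54.5, and 14.4 CPM in IL1RL1-/- mice, a spread of more than 10 times within the latter group. Igkv1-110 and Igkv1-117, though nearly identical, led in different libraries: Igkv1-117 was the most counted V segment of WT monocytes 1 and 2 (49.9 and 33.9 CPM), and Igkv1-110 was highest in IL1RL1-/- monocytes 1 and 2 (70.1 and 67.7 CPM). By family, the 61 Ighv1 segments took the largest share of heavy chain V counts, from 25.5% in IL1RL1-/- RPMs to 35.8% in WT RPMs in the group means. Among kappa families, the 9 Igkv8 segments took 16.2% in monocytes of both genotypes and 22.0% ± 3.03 in WT RPMs, and the 27 Igkv4 segments took 14.6% ± 1.45 in WT and 16.6% ± 1.68 in IL1RL1-/- monocytes.

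The V profile of a pre-RPM library was most like that of the monocytes of the same mouse. The overlap of 2 profiles, the sum over segments of the smaller share of V counts, had a median of 76.4% (61.9 to 83.8%, 8 pairs) between the monocytes and pre-RPMs of 1 mouse. It was 59.8% (46.0 to 73.9%, 24 pairs) between different mice of 1 genotype and 58.8% (44.6 to 67.9%, 32 pairs) between genotypes. In 8 of 8 pre-RPM libraries, the own mouse gave the highest overlap among the 8 monocyte libraries, and likewise with V segments of at least 100 counts alone. For RPMs the own mouse gave the highest overlap in 4 of 8 libraries against monocytes (median 55.3% in the same mouse, 52.9% in another of the same genotype) and in 4 of 8 against pre-RPMs (57.7% and 48.3%). The part of the number of V counts in these values was not tested. The pairs share libraries, and the overlaps are a description.

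**Figure D5:**
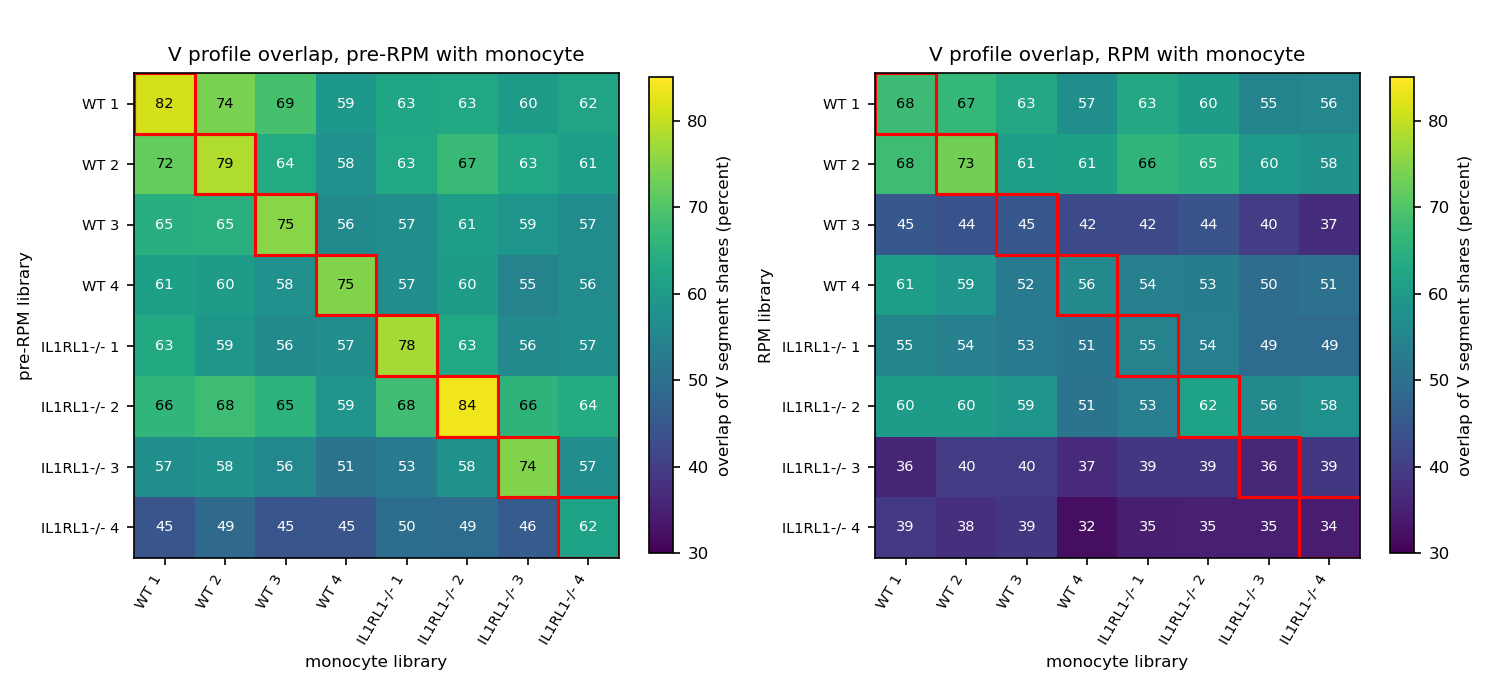
Overlap of V segment profiles in percent, as heat maps of the 8 pre-RPM libraries and of the 8 RPM libraries against the 8 monocyte libraries, with boxes around pairs from the same mouse. In the pre-RPM map the boxed pair is the highest of its row in 8 of 8 rows, and in the RPM map in 4 of 8.

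In both genotypes, some segments were highest in the same mouse in more than 1 sort. In WT mouse 3, Igkv8-21 had 166 counts in monocytes, where the other WT mice had 32 to 101. It had 96 counts in pre-RPMs of that mouse, where the other WT mice had 7 to 23. The examples that follow are from the IL1RL1-/- group. Igkv3-4 read 20.7 CPM in monocytes of IL1RL1-/- mouse 3 and 2.21 to 3.78 CPM in the other 3 mice, and in pre-RPMs 4.76 CPM in mouse 3 and 0 to 0.339 CPM in the others. Ighv8-12 read 45.8 CPM in monocytes and 15.1 CPM in pre-RPMs of IL1RL1-/- mouse 2, where the other pre-RPMs had 0.373 to 1.19 CPM. Igkv12-46 read 80.3 CPM in monocytes and 15.5 CPM in pre-RPMs of IL1RL1-/- mouse 3 and was the most counted V segment of both libraries. Igkv4-63 read 4.31 CPM in monocytes of IL1RL1-/- mouse 3, against 0.738 to 1.03 CPM in the other IL1RL1-/- mice, and 3.73 CPM in its RPMs, where those 3 mice had 0 counts. It was not particular to that mouse, since WT monocyte 4 read 6.29 CPM and all 4 WT RPM libraries had 6 to 9 counts.

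Of 11 genes of V(D)J recombination and the B cell receptor, only Ung, Cd79a, and Cd79b passed the filter in the 7 comparisons of groups, and 0 of them were called by edgeR in each. Between genotypes, Cd79a and Cd79b had an unadjusted p under 0.05 in pre-RPMs (log2 fold changes -0.65 and -0.58), and Cd79a in RPMs (-1.16). The genes not tested include Rag1 and Rag2, whose products cut the DNA in developing B cells. Rag2 had 0 counts in all libraries of 5 groups, and Vpreb2, a part of the pre-B cell receptor, had 0 counts in all 24.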

How the data were processed

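RNA-seq libraries of monocytes, pre-RPMs, and RPMs from 4 WT and 4 IL1RL1-/- mice were used, and 24 samples of chromatin accessibility are not analysed here. The authors prepared libraries with a strand-specific total RNA kit and deposited counts, whole numbers of read pairs per gene, made with cutadapt (2.8 in the submitters' processing notes), STAR 2.5.1, and featureCounts 1.6.2 on the annotation of GRCm38 named in the file headers. Pairs that matched several places were not counted. The annotation's 54735 genes were kept, and total counts ranged from 3562367 to 6559454.

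Tests used the quasi-likelihood F test of edgeR 4.0.16 with limma 3.58.1 in R 4.3.3, after filterByExpr and TMM scaling, and p-values were adjusted by Benjamini-Hochberg across the whole table of tested genes. A call between genotypes needed an adjusted p below 0.05, and one between cell types an adjusted p below 0.01 and a log2 fold change below -1 or above 1. SEs were derived from the F statistic. The first fit had no block, and DESeq2 1.42.0, other filters and scalings, and each library left out were alternatives. The scripts were tested on simulated data. Labels name the mouse of each library, so cell types of a genotype are paired by animal. Same-numbered mice of different genotypes are different animals, and every pair of their libraries deviated together (correlation over 0.1) in monocytes (0.118 to 0.452) and RPMs (0.149 to 0.182) but not in pre-RPMs (0.0452 to 0.155). Between monocytes and pre-RPMs of 1 animal the correlation was -0.0394 to 0.116 in WT and 0.126 to 0.306 in IL1RL1-/- mice. Between pre-RPMs and RPMs of 1 animal it was 0.0639 to 0.139 in WT and 0.0943 to 0.142 in IL1RL1-/- mice. Pairs of unlike number are not given, and what the shared number stands for between genotypes was not tested. Counts of 3 were taken as the limit that a count of 0 allows; intervals and limits cover counting error only.

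Named were all constant genes, up to 5 called members per comparison and direction with the largest changes, the 10 most counted V segments, the leading V segment of each library, and the 10 segments most concentrated in 1 library. Members and lists were chosen with earlier results of these data known. Shared 50-base stretches were searched in GENCODE M21 transcripts with Python 3.11.15, NumPy 2.4.6, and pandas 2.3.3, and figures were drawn with matplotlib 3.10.9.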

Additional observations from a re-analysis of the deposited data

Results flagged for a closer look

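In 30 of 338 checks of a named member or share within a group of 4 libraries, 1 library stood apart from the other 3 by more than Dixon's 95% critical value for the gap over the range. Chance flags about 1 in 20 such groups only for normally distributed values and members named without regard to them. Here some members were named for being concentrated in 1 library, and some counts are small. The 30 of 338 are therefore not set against that rate. The values are levels in CPM unless a percent is given, and no explanation was weighed.

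In WT monocytes, mouse 4 stood apart for Ighv13-2 (1.80), Ighv8-12 (11.8), and Igkv9-123 (14.1), and mouse 2 for Igkv11-125 (3.79). Among IL1RL1-/- monocytes, mouse 3 stood apart for Igkv3-4 (20.7) and Igkv4-63 (4.31), and mouse 2 for Igkv8-28 (71.7), Igkv8-34 (2.31), and Igkv9-124 (35.1).

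WT pre-RPMs of mouse 3 stood apart for Igkv10-96 (15.0) and Igkv8-21 (23.5), and those of mouse 1 for Iglc3 (7.68). Among IL1RL1-/- pre-RPMs, mouse 2 had the highest kappa share of light chain constant counts (95.7%) and stood apart for Ighv13-2 (5.60), Ighv8-12 (15.1), Igkv1-117 (11.5), and Igkv8-28 (16.5). Mouse 3 of that group stood apart for Igkv3-4 (4.76) and Igkv6-20 (2.08), and mouse 1 for Ighv3-6 (1.66).

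WT RPMs of mouse 2 stood apart for Igkv12-46 (3.46), Igkv17-127 (7.94), and Igkv4-59 (5.90), and those of mouse 4 for Igkv3-1 (3.92). In IL1RL1-/- RPMs, mouse 1 stood apart for Ighg3 (1.12), Igkv1-135 (16.1), Igkv16-104 (13.7), and Igkv8-30 (8.97), mouse 3 for Igkv4-63 (3.73), and mouse 2 for Igkv8-28 (1.80).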

How the results depend on the processing

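Counts below are of called members and stand without the share of all genes called in the same setting. Whether a setting called more genes throughout is not shown. Between genotypes, DESeq2 called 11 (monocytes), 1 (pre-RPMs), and 7 (RPMs), and testing every gene with at least 1 count called 79, 27, and 54. At least 10 counts in every library left 0 in RPMs, and 1 fit of all 24 libraries gave 2 in monocytes. From monocytes to pre-RPMs, DESeq2 called 51 in WT mice, testing every gene with at least 1 count called 107 in WT and 144 in IL1RL1-/- mice, requiring 10 counts in every library called 9 and 7, and 1 fit of all libraries called 65 in IL1RL1-/- mice. From pre-RPMs to RPMs, every gene with at least 1 count gave 10 in WT (5 higher) and 86 in IL1RL1-/- mice (1 higher), where DESeq2 gave 29, 10 counts in every library 1, and 1 fit of all libraries 29. The Igha share of heavy constant genes became 40.6% in WT pre-RPMs and 4.55% in WT RPMs per kilobase. Why the counts moved was not tested, beyond the number of genes each filter tests.

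With the mouse number as a block, 14, 4, and 8 members were called between genotypes in monocytes, pre-RPMs, and RPMs. The pre-RPM calls included Ighm (log2 fold change -0.84, edgeR adjusted p = 0.0276). The block called 50 and 90 from monocytes to pre-RPMs in WT and IL1RL1-/- mice and 3 and 17 from pre-RPMs to RPMs. The interactions gave 9 over pre-RPMs and RPMs and 15 over monocytes and RPMs. Igkc from WT pre-RPMs to RPMs turned to -0.11 with the block.

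With 1 library left out, counts ranged from 0 to 2 (genotype, monocytes and pre-RPMs each), 1 to 5 (genotype, RPMs), 7 to 53 and 14 to 73 (monocytes to pre-RPMs in WT and IL1RL1-/- mice), 1 to 5 and 8 to 23 (pre-RPMs to RPMs), and 0 to 0, 0 to 2, and 0 to 3 for the interactions over monocytes and pre-RPMs, pre-RPMs and RPMs, and monocytes and RPMs. Between genotypes in RPMs, 4 were called without WT 3, 2 without WT 4, and 5 without IL1RL1-/- 1. In monocytes, 2 each were called without IL1RL1-/- 3 or 4, and in pre-RPMs 1, 2, and 2 without IL1RL1-/- 1, 3, or 4. From WT monocytes to pre-RPMs, 14 and 53 were called without monocyte 1 or 3, and 12, 11, and 7 without pre-RPM 1, 2, or 4. In IL1RL1-/- mice, 16 and 73 were called without monocyte 2 or 4, and 15, 20, and 14 without pre-RPM 1, 3, or 4. From WT pre-RPMs to RPMs, 1 was called without pre-RPM 3 or 4 or RPM 1 or 2, 4 without RPM 3, and 5 without RPM 4. In IL1RL1-/- mice, 23 were called without pre-RPM 4, and 22, 19, and 17 without RPM 1, 2, or 4. The interaction over pre-RPMs and RPMs gave 2 without WT RPM 3 or IL1RL1-/- pre-RPM 4 and 1 without IL1RL1-/- RPM 1, and that over monocytes and RPMs gave 3 without IL1RL1-/- monocyte 4.

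Log2 changes near 0 changed sign with 1 library left out: Igkc between genotypes in pre-RPMs (-0.043 to 0.804), Ighm from IL1RL1-/- monocytes to pre-RPMs (-0.28 to 0.31) and from pre-RPMs to RPMs (-0.71 to 0.033), Igkc from WT pre-RPMs to RPMs (-0.36 to 0.26), and the Ighm interaction over monocytes and RPMs (-0.71 to 0.225). Of 690 alternative values of 48 called single-gene results, 572 stayed past the threshold, 118 did not, and 0 changed sign.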

Other observations

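Joining (J) segments, which the naming rule leaves out, were also counted most in monocytes. The 14 short J genes had 1791 counts in all. WT monocytes had 527 of these, IL1RL1-/- monocytes 841, WT and IL1RL1-/- pre-RPMs 120 and 169, WT RPMs 107, and IL1RL1-/- RPMs 27. Per library, J counts ranged from 94 to 178 in WT monocytes and from 98 to 327 in IL1RL1-/- monocytes, and from 8 to 55 in WT and 4 to 14 in IL1RL1-/- RPMs. These counts are not scaled to depth and were not tested.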
